A study of Mus musculus with 42 samples.

Results

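The 8 genes described here form a short path from the regulators of fat cell formation to the proteins that bring fatty acids into a cell. They were chosen by name: Pparg, Cebpa, Cebpb, Cebpd, Fabp4, Fabp5, Lpl and Cd36, measured by 14 probes, out of 27597 named genes and 41174 non-control probes on the array. The study compared wild type mice with heterozygous Akt1 knockout mice (Akt1+/-), which keep 1 working copy of the gene for the kinase Akt1, a mediator of insulin signalling. All mice were C57BL/6 females, the mutants backcrossed to that strain, and the deletion was present in the whole body. RNA of liver, quadriceps muscle and visceral fat was hybridised to 42 one-colour arrays at 8 weeks (3 arrays for each tissue and genotype) and at 35 weeks (4 arrays). The labels give 35 weeks for the older mice, while the methods give a higher age, and the methods give 3 animals where the labels have 4.

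In the developing adipocyte, C/EBPβ and C/EBPδ (Cebpb, Cebpd) act early and lead to PPARγ and C/EBPα (Pparg, Cebpa), which maintain each other and switch on the genes of the mature fat cell. Among those genes are Lpl, encoding the lipoprotein lipase that frees fatty acids from triglyceride in the blood, Cd36, encoding a fatty acid receptor of the cell surface, and Fabp4 and Fabp5, encoding carriers that bind fatty acids in the cytoplasm. None of these genes is restricted to adipocytes: C/EBPα and C/EBPβ serve the hepatocyte, muscle takes up fatty acids through lipoprotein lipase and CD36, and endothelial cells and macrophages make FABP4, FABP5 and CD36. In a whole tissue, fewer cells of a type and less RNA per cell cannot be told apart.

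Promoters are shown for 4 members that RefSeq lists on GRCm38.p6, from 250 bases before to 50 bases after the start, the members covered by the table used here, so that the regulators' own elements can be seen. Capitals mark matches on either strand to 5 motifs. They are the CCAAT box and, as TATA box, the letters TATAAA. Nuclear receptors such as PPARγ bind elements with the letters AGGTCA. For the C/EBP family the letters searched were TTGCG, and also the looser motif TTNCNNAA, which can overlap it.
Pparg, chr6:115421816-115422115, plus strand: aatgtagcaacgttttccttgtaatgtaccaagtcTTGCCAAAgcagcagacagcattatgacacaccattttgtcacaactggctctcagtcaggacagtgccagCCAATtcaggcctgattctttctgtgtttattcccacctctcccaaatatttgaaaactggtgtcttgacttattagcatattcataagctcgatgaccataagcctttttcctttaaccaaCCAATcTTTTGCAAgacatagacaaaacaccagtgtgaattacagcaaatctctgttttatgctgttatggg
Cebpa, chr7:35119043-35119342, plus strand: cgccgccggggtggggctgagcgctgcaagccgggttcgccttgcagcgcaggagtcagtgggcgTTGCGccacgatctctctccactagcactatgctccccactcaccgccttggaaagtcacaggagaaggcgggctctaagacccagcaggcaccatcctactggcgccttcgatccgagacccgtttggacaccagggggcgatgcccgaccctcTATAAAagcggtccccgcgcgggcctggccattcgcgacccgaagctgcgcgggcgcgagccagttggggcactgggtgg
Cd36, chr5:17835847-17836146, minus strand: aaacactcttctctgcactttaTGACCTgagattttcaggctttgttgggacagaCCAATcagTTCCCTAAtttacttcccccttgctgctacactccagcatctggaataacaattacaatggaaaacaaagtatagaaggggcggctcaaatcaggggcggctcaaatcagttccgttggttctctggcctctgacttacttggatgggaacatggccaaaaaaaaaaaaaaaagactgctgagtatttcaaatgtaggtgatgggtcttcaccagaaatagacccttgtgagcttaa
Cebpb, chr2:167688665-167688964, plus strand: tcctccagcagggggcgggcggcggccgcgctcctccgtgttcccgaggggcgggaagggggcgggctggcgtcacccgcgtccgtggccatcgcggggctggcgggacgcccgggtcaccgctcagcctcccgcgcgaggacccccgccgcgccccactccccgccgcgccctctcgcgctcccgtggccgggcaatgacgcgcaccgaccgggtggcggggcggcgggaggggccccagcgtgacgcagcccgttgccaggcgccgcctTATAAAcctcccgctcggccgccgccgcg

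Of 3 starts listed for Pparg 1 is shown. The other two have no match to TTNCNNAA, and each has AGGTCA, at -28 and -9, which the start shown lacks. That start has 2 matches to TTNCNNAA and 2 to CCAAT, the nearer pair at positions -16 and -22 counted from the start. Cd36 has AGGTCA on the reverse strand at -228, CCAAT at -195 and TTNCNNAA at -187. The Cebpa promoter has TTGCG at -185 and TATAAA at -30. Cebpb has a TATAAA match 21 bases after its listed start, and its promoter is 80.7% G and C, against a median of 52.7% over 32851 mouse promoters. Such matches are frequent: CCAAT occurs in 37.4% of those promoters, TATAAA in 13.6%, AGGTCA in 16.3%, TTGCG in 17.4% and TTNCNNAA in 40.7%, so they are a description of the sequence and not of binding.

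Each level below is the log2 of a probe's processed intensity relative to the 75th percentile of its array, so that 1 unit is a 2-fold difference and levels of different probes are not compared. A difference was called at a Benjamini-Hochberg adjusted p below 0.05 in limma, adjusted over all genes tested. Of the 14 probes, 13 were well above background on all 42 arrays and none was saturated. The exception was the single probe of Fabp5 (mm8 chr3:9998905-9998964), which was well above background on 14 of 14 fat arrays, 1 of 14 liver arrays and 0 of 14 muscle arrays. Hence 7 members were tested in liver and 7 in muscle, and all 8 in fat and between tissues, where Fabp5 passed the filter only through fat. The 75th percentile of intensity was 274 to 431 in liver, 300 to 443 in muscle and 468 to 795 in fat, and 56.5% to 68.6% of spots were well above background. Akt1 itself was lower in Akt1+/- mice by 0.67 in liver (adjusted p = 0.0026), 0.58 in muscle (adjusted p = 0.074) and 0.55 in fat (adjusted p = 0.0065) on the log2 scale. Tissue labels matched the markers: summed signals of 7 skeletal muscle genes were 3660 to 4847 in muscle and at most 100.5 elsewhere, those of 6 hepatocyte genes 1469 to 2072 in liver and at most 132 elsewhere, and those of 7 adipocyte genes 1221 to 1799 in fat and at most 183 elsewhere, in multiples of the 75th percentile. No label says that the arrays are separate animals within a group or that tissues of 1 number share an animal, so p-values measure the spread between these samples.

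Visceral fat had the highest level of Pparg, Fabp4, Lpl and Cd36, and the 2 early regulators were lowest or intermediate there. Fabp5, which passed the filter through fat alone, is left out of the counts here. Against muscle 7 of 7 members were called (background 87.6% of 19862 genes), 5 higher and 2 lower in fat. Against liver 6 were called (background 86.2%), 5 higher and 1 lower, and between liver and muscle 6 were called (background 85.8%), 2 higher and 4 lower in liver. Since most genes differ between tissues, these counts are close to the background and the sizes carry the description.

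**Figure D1:**
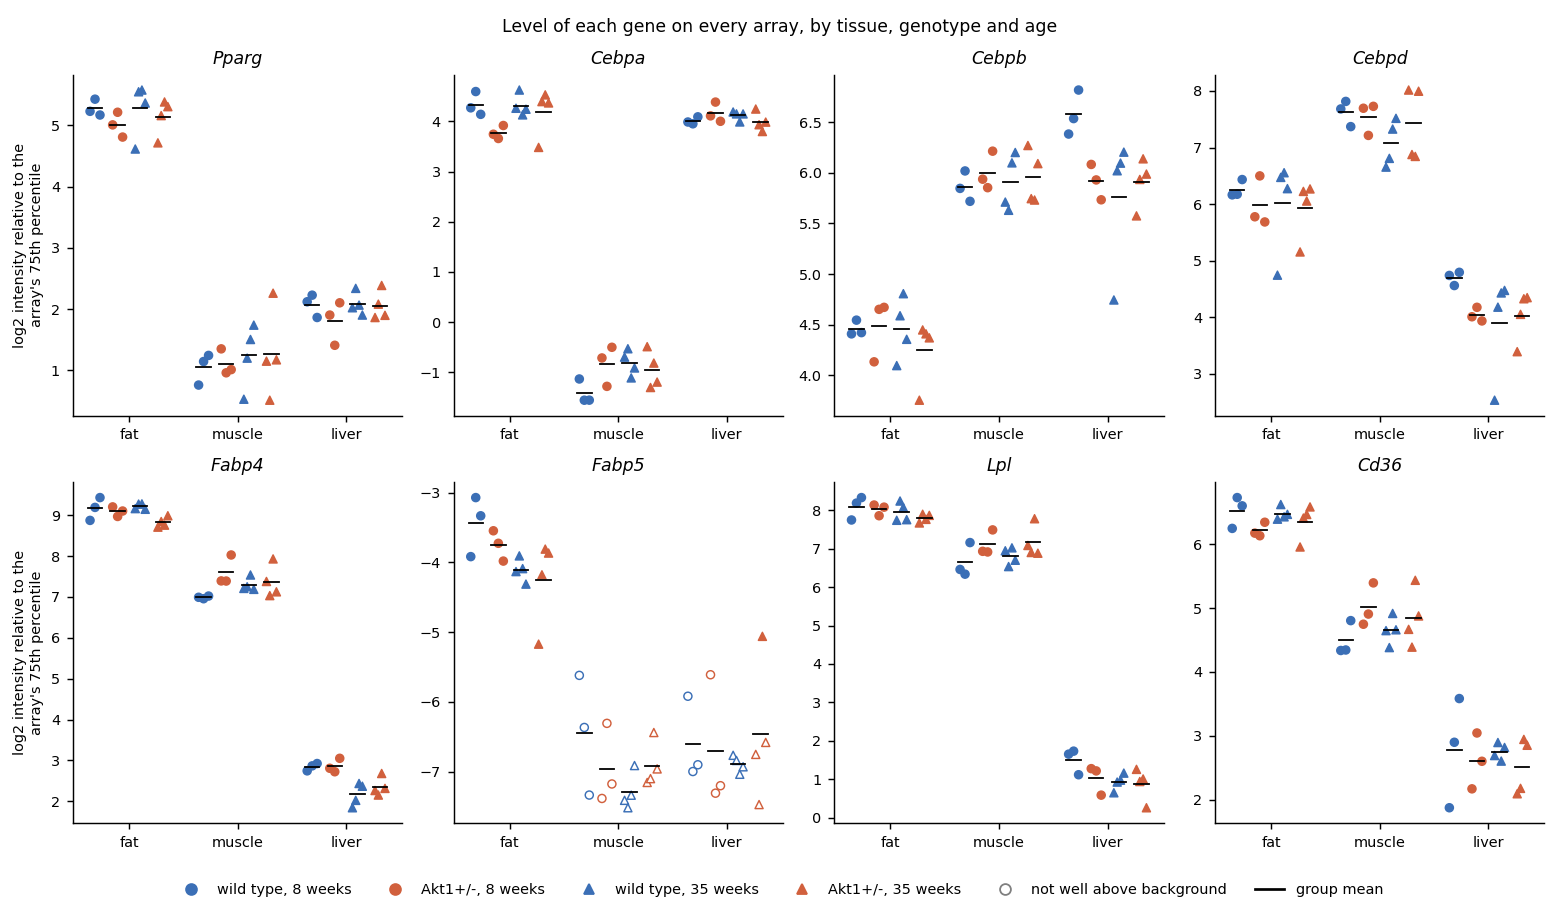
Log2 level of each gene on all 42 arrays (1 probe per gene, the brightest over the tissues, which for Fabp4 is not the probe of the tests within liver and muscle), by tissue, with wild type in blue, Akt1+/- in orange, circles for 8 weeks, triangles for 35 weeks and bars for group means; open symbols are arrays on which the spot was not well above background. Fat stands highest for Pparg, Fabp4, Fabp5, Lpl and Cd36, Cebpa is at like levels in fat and liver, and Cebpb and Cebpd are higher in muscle than in fat.

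Pparg, the nuclear receptor at the centre of the program, ranged over the 14 arrays of each tissue from 4.61 to 5.58 in fat (median 5.22), from 1.41 to 2.39 in liver (median 2.04) and from 0.51 to 2.26 in muscle (median 1.16). Fat did not overlap either tissue and was 16.1-fold above muscle and 9.02-fold above liver. Liver exceeded muscle by 0.84 ± 0.14 (log2, SE), although the ranges overlapped. Its probe was spotted 10 times on each array (mm8 chr6:115455814-115455873).

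Cebpa, which encodes a regulator that the fat cell shares with the hepatocyte, ranged from 3.48 to 4.62 in fat (median 4.25), from 3.80 to 4.38 in liver (median 4.05) and from -1.56 to -0.49 in muscle (median -1.01). Muscle lay 35.7-fold below fat and 33.7-fold below liver. Fat and liver could not be separated: the difference was 0.08 ± 0.10 (log2, SE, adjusted p = 0.45). When arrays were scaled to their medians it became -0.10, by a shift of -0.18 that all genes shared. After normexp correction it was 0.66 and called. The second Cebpa probe gave 4.95 for fat minus muscle and 0.05 for fat minus liver.

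Cebpb and Cebpd, the regulators that act first, had other orders. Cebpb ranged from 3.75 to 4.81 in fat (median 4.42), from 5.63 to 6.27 in muscle (median 5.90) and from 4.74 to 6.82 in liver (median 6.05). Fat was 2.87-fold below muscle without overlap and 3.09-fold below liver, where only the lowest liver array reached the fat range. Liver and muscle did not differ beyond their spread (0.11 ± 0.12, log2, SE; adjusted p = 0.40; the sign was turned, -0.11, after normexp background correction and quantile normalization). Without replicate 1 of both genotypes at 35 weeks it was 0.23 ± 0.08 and called (adjusted p = 0.0085). Cebpd was highest in muscle, at 6.65 to 8.02 (median 7.44), followed by fat at 4.74 to 6.55 (median 6.20) and liver at 2.53 to 4.79 (median 4.25). All 3 steps were called, with muscle 2.59-fold above fat and fat 3.68-fold above liver, and a single low fat array overlapped liver.

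Lpl, Cd36 and Fabp4 shared the order fat, muscle, liver. Lpl ranged from 7.67 to 8.33 in fat (median 7.88), from 6.34 to 7.78 in muscle (median 6.92) and from 0.26 to 1.73 in liver (median 1.06). Adult liver makes little of the lipase, and fat exceeded it 119-fold and muscle 57.8-fold. Fat exceeded muscle 2.05-fold, with 1 muscle array inside the range of fat. Cd36 ranged from 5.96 to 6.73 in fat (median 6.42), from 4.34 to 5.44 in muscle (median 4.71) and from 1.87 to 3.58 in liver (median 2.75), with no overlap between the tissues. Fat exceeded muscle 3.12-fold and liver 13.3-fold.

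Fabp4, the carrier of the adipocyte, ranged from 8.71 to 9.43 in fat (median 9.12), from 6.96 to 8.03 in muscle (median 7.23) and from 1.84 to 3.05 in liver (median 2.56) with its brightest probe. Its 3 probes disagreed in size though not in order. Fat exceeded muscle by 1.76, 1.21 and 3.97 and liver by 6.51, 5.82 and 9.08 on the log2 scale for the probes at mm8 chr3:10187065-10187794, chr3:10186983-10187043 and chr3:10190974-10191033. The last of these read 6.47 in fat, 2.50 in muscle and -2.61 in liver on average. The fold of Fabp4 between tissues thus depends on the probe. For Lpl the second probe gave 1.34 over muscle and 7.49 over liver, against 1.03 and 6.89 for the first.

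Fabp5, the carrier found in many other cell types, was dim throughout. In fat it ranged from -5.17 to -3.07 (median -3.91), and it is bounded elsewhere by background. On that bound the level in fat was at least 2.48-fold above muscle and at least 2.30-fold above liver. By group the bound over muscle ran from 1.63-fold (Akt1+/- at 35 weeks) to 3.71-fold (wild type at 8 weeks). Over liver it ran from 1.99-fold to 2.69-fold in the same 2 groups. The measured difference between liver and muscle, 0.23 ± 0.21 (log2, SE; adjusted p = 0.31), lies below background on nearly all arrays and has no order, and its sign turned after normexp correction (-0.0033).

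Over the means of the 12 groups the members fell into like and unlike patterns, given here as description over points that share libraries and are dominated by 3 tissues. Fabp4 and Lpl followed each other most closely (r = 0.991), then Fabp4 and Cd36 (r = 0.978), whereas Pparg and Cebpb ran opposite (r = -0.931). The genes most like each member among 19862 were Mfsd10 and Wt1 for Pparg, Ppia and Itpka for Cebpa, Slc25a38 and Clpx for Cebpb, Fbxl22 and Slc35f1 for Cebpd, Retnla and Kitl for Fabp4, Vit and Cd200 for Lpl, and Cav2 and Adgrd1 for Cd36. The correlations were 0.984 and 0.987 for Cebpb and between 0.992 and 0.999 for the others. Fabp5 is left out, since its readings in 8 of the 12 groups lie at background. Some of the genes named also reach that low. The lowest group means were -7.63 for Slc35f1, -7.55 for Wt1, -7.47 for Retnla, -7.45 for Vit, -6.40 for Adgrd1 and -5.24 for Fbxl22. Their correlations thus rest in part on values at or near background.

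Loss of 1 Akt1 copy moved none of the 8 genes past the threshold in any tissue or at either age. Over both ages 0 of 7 members were called in liver (background 6.26% of 17561 genes), 0 of 7 in muscle (background 0.0% of 17139 genes, of which 3162 had an unadjusted p below 0.05, 2 of them members) and 0 of 8 in fat (background 0.822% of 18366 genes). At 8 weeks the counts were 0 in liver (background 2.12%), 0 in muscle (background 0.0%) and 0 in fat (background 1.84%). At 35 weeks they were 0 in liver (background 3.55%), 0 in muscle (background 0.0992%) and 0 in fat (background 1.72%). The interaction of genotype and age was likewise called for 0 members in liver (background 0.558%), muscle (background 0.0%) and fat (background 1.64%). At an unadjusted p below 0.05 in limma lay 2 members in muscle at 8 weeks (2704 of 17139 genes), 1 in fat at 8 weeks (4418 of 18366 genes), 1 in fat at 35 weeks (2251 of 18366 genes) and 0 in liver at 8 weeks (3667 of 17561 genes) and 35 weeks (2991 of 17561 genes). The 95% limits bound what may have been missed. Over both ages they reached a 1.75-fold decrease and a 1.37-fold increase in fat, a 1.83-fold decrease and a 1.26-fold increase in liver, and a 1.42-fold decrease and a 1.74-fold increase in muscle. At 8 weeks alone they reached a 2.33-fold decrease in fat, a 2.97-fold decrease in liver and a 2.17-fold increase in muscle.

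**Figure D2:**
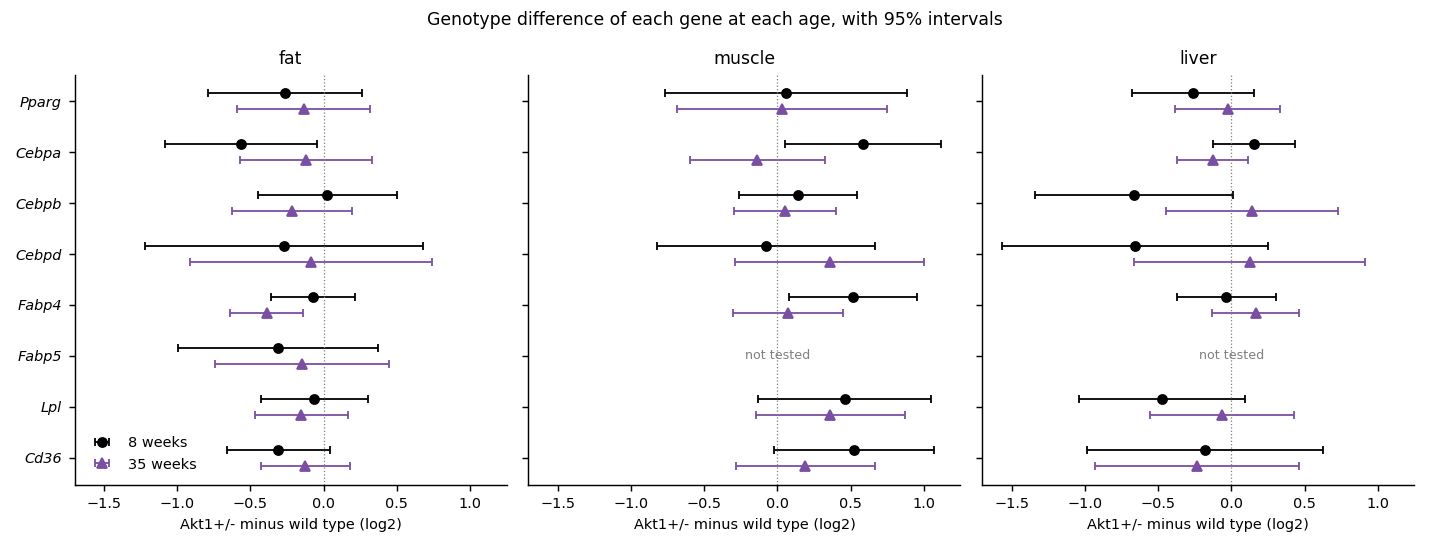
Difference between Akt1+/- and wild type (log2) for each gene at 8 weeks (black circles) and 35 weeks (purple triangles) in fat, muscle and liver, with 95% intervals from limma; Fabp5 was not tested in muscle and liver. The estimates in fat lie mostly below 0 and those in muscle mostly above 0. After normexp correction the averages of Fabp4 and Lpl in fat turned to just above 0, and median scaling turned that of Pparg in muscle.

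In fat all 8 estimates over both ages were below 0, from -0.34 to -0.09 with a median of -0.21, against a median of -0.01 over all genes. The members are not independent of each other, and 2 signs did not hold under another normalization: Fabp4 and Lpl became 0.0029 and 0.0064 after normexp correction. In muscle all 7 estimates were above 0, from 0.04 to 0.41 with a median of 0.22, against -0.0031 over all genes. Pparg turned to -0.04 under median scaling, which moved all muscle genes by -0.087. Without Fabp5, the difference between those tissues in the genotype effect was called for 0 of 7 members (fat against muscle, background 0.73%), as were those of fat against liver (background 4.27%) and liver against muscle (background 0.896%). Fabp4 came nearest, with a genotype difference 0.57 ± 0.17 lower in fat than in muscle (log2, SE; adjusted p = 0.096), and with the replicate number as a block it was called (adjusted p = 0.045).

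Fabp4 in fat at 35 weeks was the clearest single difference. The wild type arrays read 9.16, 9.27, 9.28 and 9.14, and the Akt1+/- arrays 8.71, 8.84, 8.76 and 8.99. The groups did not overlap, which at that age held for 1 of 8 members against 9.88% of all genes in fat. The difference was -0.39 (95% interval -0.64 to -0.14) with an adjusted p of 0.15 in limma. An exact two-sided permutation test of the 4 against 4 arrays gave p = 0.0286, the smallest it allows. It was the only 1 of 22 such tests at 35 weeks to reach that value. Groups without overlap always give this p, so the test adds nothing to their separation. It also treats arrays of 1 replicate number as unrelated. At 8 weeks Fabp4 read 8.87 to 9.43 in wild type and 8.97 to 9.20 in Akt1+/- fat, a difference of -0.07. The second probe gave -0.40 at 35 weeks and the third -0.08, and normexp correction with quantile normalization reduced the difference to -0.02.

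Beside it, the summed signal of 7 adipocyte genes was 1539 to 1799 in wild type and 1221 to 1452 in Akt1+/- fat at 35 weeks. Of these 7, Cfd, the gene of adipsin, was called (-0.55, adjusted p = 0.0065). Adipoq (-0.21), Plin1 (-0.05), Lipe (-0.03), Cidec, Lep and Retn were not. Cidec read 8.97 to 9.16 on the wild type arrays and 8.78 to 8.94 on those of Akt1+/-. The part of the adipocyte genes in the result was not tested. The 2 genotypes of 35-week fat were also hybridised on separate slides and scanned on separate days, so genotype, slide and scan day cannot be told apart there. At that age each genotype had its own slide in liver and muscle too.

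Cebpa was the other gene in fat whose groups did not overlap with the probe tested. At 8 weeks the wild type arrays read 4.27, 4.59 and 4.14, and those of Akt1+/- 3.74, 3.66 and 3.92, without overlap, as for 1 of 8 members and 27.1% of all genes. The difference was -0.56 ± 0.24 (log2, SE; adjusted p = 0.18 in limma), and the second probe gave -0.45. At 35 weeks the groups overlapped, with wild type from 4.13 to 4.62, 3 Akt1+/- arrays from 4.37 to 4.53 and the fourth, replicate 1, at 3.48. The difference between 35 and 8 weeks over both genotypes was 0.20 (adjusted p = 0.40), became 0.32 without that array (adjusted p = 0.047) and was not called without replicate 1 of both genotypes (0.33, adjusted p = 0.065). With 3 arrays against 3, the permutation test cannot give an exact p below 0.10. Beside the 8-week difference, the keratin genes Krt18 (1.40), Krt8 (1.11) and Krt19 (0.89), which mark mesothelial and epithelial cells, the macrophage gene Adgre1 (0.56) and the stromal gene Ly6a (0.82) were called higher in Akt1+/- fat and the hepatocyte gene Alb lower (-3.05, adjusted p = 0.039), while 0 of 7 adipocyte genes were called. The part of those cells in the Cebpa difference was not tested. Cd36 in fat at 8 weeks differed by -0.31 with the probe tested. Its second probe gave -0.57 (adjusted p = 0.11 in limma), also without a call. On the single slide that held both genotypes of 8-week fat, 1 wild type and 3 Akt1+/- arrays, the differences ran from -0.45 to 0.06, which 1 wild type array cannot test.

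In quadriceps muscle no member was called, and Fabp4 and Cebpa had the lowest p-values at 8 weeks. Fabp4, with the probe that was brightest there, read 7.15, 7.01 and 7.05 on the wild type arrays at 8 weeks, against 7.49, 7.35 and 7.91 on those of Akt1+/-. It was the 1 of 7 members whose groups did not overlap, against 22.4% of all genes in muscle, and differed by 0.52 ± 0.20 (log2, SE; adjusted p = 0.25 in limma). Its other probes gave 0.61 and 0.81. Cebpa (0.58, adjusted p = 0.28; 0.25 with its second probe), Cd36 (0.52, adjusted p = 0.33) and Lpl (0.46, adjusted p = 0.42) were also higher without passing the test. At 35 weeks none of the 7 members had separate groups (background 5.54%), and Fabp4 differed by 0.07. Median scaling moved the genotype difference of all muscle genes at that age by -0.095, enough to turn that sign. On the slide that held 3 wild type and 1 Akt1+/- array at 8 weeks, the latter lay 0.07 to 0.70 above the wild type mean, but for Cebpb, Cebpd, Lpl and Cd36 it lay within the wild type range, and 1 array allows no test.

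The muscle values moved with single arrays. Replicate 3 of Akt1+/- read highest of its group at both ages for Fabp4 (7.91 at 8 weeks and 8.05 at 35 weeks), Lpl (7.49 and 7.78) and Cd36 (5.39 and 5.44). Without the array at 8 weeks the Fabp4 difference at that age was 0.35 (adjusted p = 0.68). The summed signal of 8 endothelial genes was 22.5 to 25.2 in wild type and 29.1, 30.2 and 49.5 in Akt1+/- muscle at 8 weeks, with 49.5 on replicate 3. The macrophage genes gave 25.7 to 51.9 against 52.8 to 76.3 and the adipocyte genes 26.2 to 60.5 against 28.4 to 114. No gene of any kind was called in that comparison, so the absence of marker calls says nothing of those cells. The same array held albumin RNA at a level of 5.18, against -2.21 to 1.51 on the other 8-week muscle arrays. The part of these cells in the result was not tested.

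**Figure D3:**
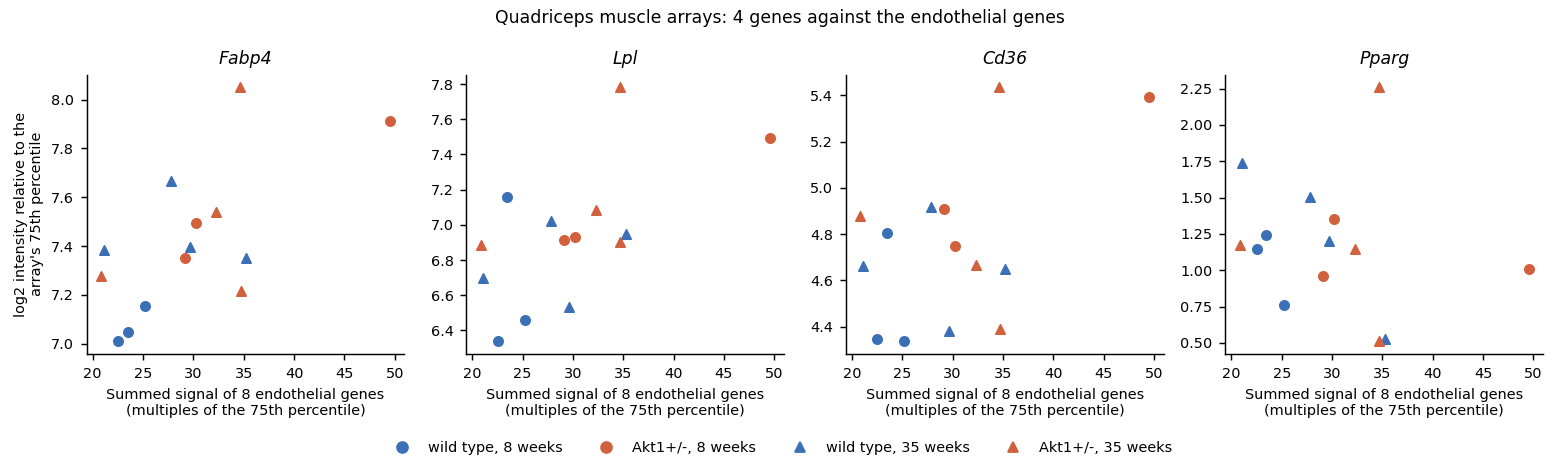
Log2 levels of Fabp4, Lpl, Cd36 and Pparg on the 14 muscle arrays against the summed signal of 8 endothelial genes on the same array; blue is wild type, orange Akt1+/-, circles 8 weeks and triangles 35 weeks. Replicate 3 of Akt1+/- stands at the top for Fabp4, Lpl and Cd36 at both ages, with endothelial sums of 49.5 and 34.7 where the others reach 35.2.

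In liver no member was called either, and Cebpb and Cebpd had the largest differences at 8 weeks. At 8 weeks Cebpb read 6.38, 6.54 and 6.82 on the wild type arrays, against 6.08, 5.93 and 5.73 on those of Akt1+/-, a difference of -0.66 ± 0.31 (log2, SE; adjusted p = 0.25). Cebpd read 4.74, 4.56 and 4.79 in wild type, against 4.01, 4.17 and 3.93 in Akt1+/-, a difference of -0.66 ± 0.42 (adjusted p = 0.39). Neither gene overlapped between the genotypes, which held for 2 of 7 members against 25.2% of all genes in liver, a share near that background, and the second Cebpb probe gave -0.88. At 35 weeks 0 of 7 members had separate groups (background 12.7%), and the differences were 0.14 for Cebpb and 0.13 for Cebpd. Median scaling moved the genotype difference of all liver genes at that age by -0.17, enough to turn both signs. Lpl differed by -0.47 at 8 weeks and Cebpa by 0.16, with overlapping groups.

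The test at 8 weeks drew its spread from all 14 liver arrays. Leaving out any 1 of them called neither gene (lowest adjusted p 0.056 for Cebpb and 0.12 for Cebpd). Wild type replicate 1 at 35 weeks read 4.74 for Cebpb where the others read 6.02, 6.10 and 6.20, and 2.53 for Cebpd where the others read 4.18, 4.43 and 4.47. Replicate 1 of Akt1+/- was lowest as well, at 5.58 against 5.93 to 6.14 for Cebpb and 3.39 against 4.05 to 4.34 for Cebpd. The same number was lowest in fat: Cebpd read 4.74 in wild type (others 6.27 to 6.55) and 5.15 in Akt1+/- (others 6.05 to 6.27), and Cebpb 4.10 (others 4.36 to 4.81) and 3.75 (others 4.37 to 4.45). In wild type muscle replicate 1 was also lowest for Cebpd, at 6.65 (others 6.81 to 7.52), but not for Cebpb. In Akt1+/- muscle it was the highest of its group for both, at 6.27 for Cebpb and 8.02 for Cebpd. With replicate 1 of both genotypes left out at 35 weeks, a choice made after the values were seen, the spread was smaller and the 8-week differences, which those arrays do not enter, were called for Cebpb (adjusted p = 0.036) and Cebpd (adjusted p = 0.032), and Cebpd was called over both ages (-0.39, adjusted p = 0.043). With only the wild type array left out, Cebpb was called over both ages (-0.43, adjusted p = 0.039). Beside them, the summed macrophage genes were 51.3 to 67.4 in wild type and 81.9 to 103 in Akt1+/- liver at 8 weeks, and those of the hepatocyte genes 1843 to 1940 and 1511 to 1749. Their part was not tested. No slide of 8-week liver held both genotypes.

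**Figure D4:**
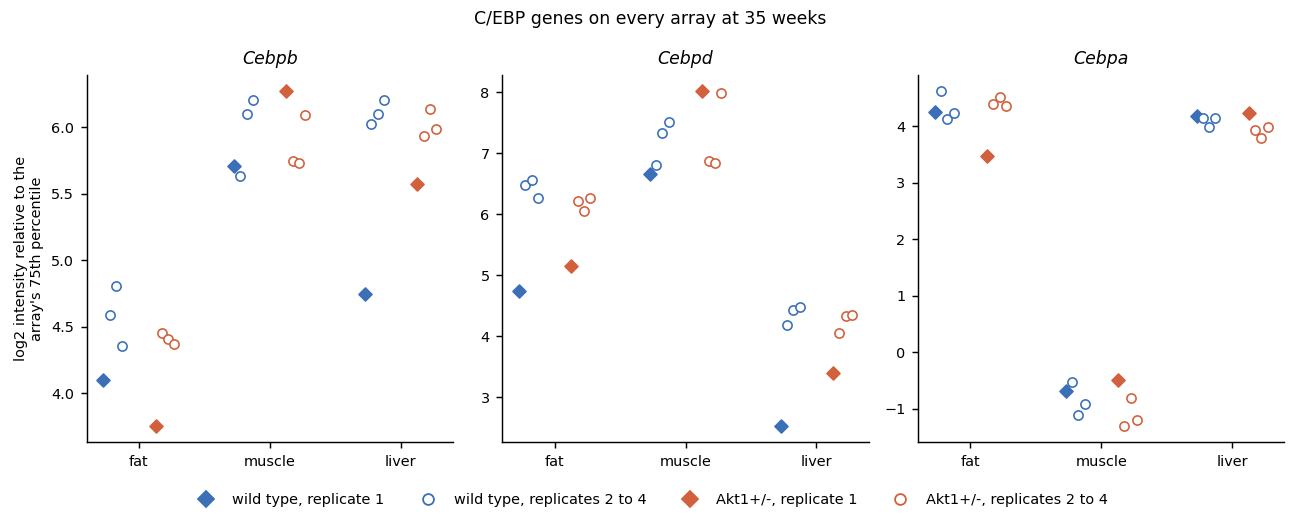
Log2 levels of Cebpb, Cebpd and Cebpa on each array at 35 weeks, with replicate 1 as filled diamonds and replicates 2 to 4 as open circles, wild type in blue and Akt1+/- in orange. Replicate 1 lies lowest of its group for Cebpb and Cebpd in fat and liver of both genotypes, for instance at 2.53 against 4.18 to 4.47 for Cebpd in wild type liver, and highest in Akt1+/- muscle.

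Between 8 and 35 weeks 1 member was called, in 1 tissue, with the scaling and probes chosen for the tests. In liver 1 of 7 members was called, against a background of 35.1% of genes, 0 of 7 in muscle (background 31.4%, lowest adjusted p 0.28) and 0 of 8 in fat (background 19.3%, lowest adjusted p 0.068). At an unadjusted p below 0.05 in limma the members numbered 1, 0 and 1, against 7892 of 17561 genes in liver, 7377 of 17139 in muscle and 6311 of 18366 in fat. No scan day held both ages of a tissue, so age and scan day cannot be told apart in any of these comparisons.

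**Figure D5:**
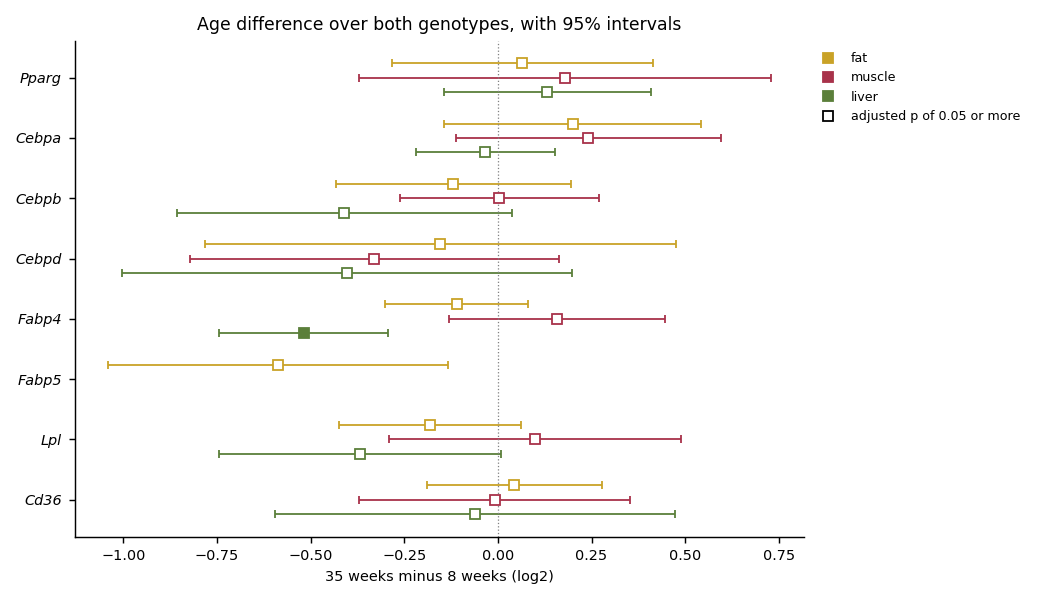
Difference between 35 and 8 weeks (log2) over both genotypes for each gene in fat, muscle and liver, with 95% intervals from limma; the filled square was called and open squares were not. Fabp4 in liver is the called value, at -0.52 with an interval from -0.74 to -0.29. Several signs near 0 turn with the normalization, among them Pparg in liver, Cebpb and Lpl in muscle and Cd36 in fat.

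Fabp4 fell in liver by 0.52 on the log2 scale (SE 0.10, 95% interval -0.74 to -0.29, adjusted p = 0.0024), a 1.43-fold decrease. At 8 weeks wild type liver read 2.98, 3.06 and 3.16 and Akt1+/- liver 2.96, 2.99 and 3.15. At 35 weeks wild type read 2.16, 2.32, 2.70 and 2.61 and Akt1+/- 2.56, 2.37, 2.89 and 2.64. A second probe gave -0.59 (adjusted p = 0.0021), while the third gave -0.19 (adjusted p = 0.21). In muscle Fabp4 differed by 0.16 and in fat by -0.11, neither called. Between tissues Fabp4 was compared with its brightest probe, which gave -0.59 in liver, against 0.03 for muscle and -0.11 for fat. With it the age difference in liver was lower than that in muscle by 0.63 ± 0.17 (log2, SE; adjusted p = 0.010), the 1 of 7 members called in that comparison, Fabp5 left out (background 18.8%). It was lower than that in fat by 0.48 ± 0.17, just short of the threshold (adjusted p = 0.052; 0 of 7 called, background 16.2%), and it passed with the replicate number as a block (adjusted p = 0.016), after normexp correction (adjusted p = 0.018) and under median scaling (adjusted p = 0.0061), as it did in 9 of the 42 fits that left out 1 array. The difference from fat stayed short with the mean of a gene's probes (0.42, adjusted p = 0.11). It also stayed short without replicate 1 of both genotypes at 35 weeks (0.44, adjusted p = 0.13). Fat and muscle differed in age for 0 of 7 members (background 16.4%).

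Adipoq and Plin1, defining genes of the adipocyte, were well above background on 1 of 14 liver arrays each. Marker genes of other cell types were called with age in liver. Of the macrophage genes Itgam (1.63), Cd14 (0.86), Lyz2 (0.65) and Cd68 (0.38) rose, and the B cell gene Ms4a1 (0.75) rose. Of 8 fibroblast and preadipocyte genes listed 5 fell, led by the collagens Col1a1 (-1.92) and Col3a1 (-1.44), and Dcn (0.28) rose. Of the endothelial genes Tek (-0.52), Esam (-0.51) and Tie1 (-0.45) fell while Cdh5 (0.27) rose. These are log2 differences, 35 minus 8 weeks, and all were called. Macrophage sums were 51.3 to 67.4 at 8 weeks and 99.5 to 124 at 35 weeks in wild type liver, while in Akt1+/- liver, at 81.9 to 103 and 85.3 to 141, the ages overlapped. The part of these cells in the Fabp4 difference was not tested.

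In fat, Fabp5 was lower at 35 weeks by 0.59 ± 0.21 (log2, SE) without passing (adjusted p = 0.068). At 8 weeks the wild type arrays read -3.92, -3.07 and -3.33, and those of Akt1+/- -3.54, -3.72 and -3.98. At 35 weeks the wild type arrays read -4.13, -3.91, -4.09 and -4.31, and those of Akt1+/- -5.17, -4.18, -3.81 and -3.86, so the ages overlapped. Beside it, 2 of 8 macrophage genes were called lower with age, Adgre1 (-0.45) and Mrc1 (-0.25). So were 3 of 8 listed stromal genes, Col3a1 (-1.61), Col1a1 (-1.35) and Pdgfrb (-0.52). Of 6 lymphocyte genes 2 were called higher with age, Cd3d (0.75) and Cd79b (0.64). Macrophage sums were 226 to 283 at 8 weeks and 228 to 309 at 35 weeks, and the part of these cells was not tested. Leaving out wild type replicate 1 at 8 weeks (adjusted p = 0.041) or Akt1+/- replicate 1 at 35 weeks (-0.44, adjusted p = 0.048) let it pass, as did the slide as a random block (adjusted p = 0.048). Cebpb (-0.41, adjusted p = 0.14) and Lpl (-0.37, adjusted p = 0.12) in liver were lower with age and not called; both were called when arrays were scaled to their medians, which lowered the age difference of all liver genes by 0.20. For Cebpb the value depended on the probe: the second probe gave -0.94 (adjusted p = 0.020) and the mean of both -0.67 (adjusted p = 0.047), while leaving out replicate 1 at 35 weeks gave -0.18.

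The pathway around the members was read from 5 lists. Among 17 other adipogenic regulators and 12 inhibitors of adipogenesis, 0 of those tested were called for genotype over both ages in any tissue. Of 20 adipocyte genes that PPARγ induces, 3 rose and 1 fell of 14 tested in Akt1+/- liver (6.26% of all genes were called there), and 0 of 19 were called in fat (0.822% of all genes). In muscle no gene at all was called over both ages, so a count of 0 there says nothing of a list. Of the liver markers the macrophage gene Cd163 (0.69) and the T cell gene Cd3e (0.47) were called too, and their part was not tested. Those that rose were Cidec, which encodes a lipid droplet protein (2.01 ± 0.47, adjusted p = 0.031), Pnpla2, the gene of adipose triglyceride lipase (0.47, adjusted p = 0.030), and Lipe, the gene of hormone-sensitive lipase (0.34, adjusted p = 0.046). Plin4, for a lipid droplet coat protein, fell (-0.82, adjusted p = 0.018). Cidec ranged from 1.90 to 2.60 in wild type and 3.94 to 6.60 in Akt1+/- liver at 8 weeks and from 2.95 to 5.15 and 4.10 to 6.17 at 35 weeks, and it was called in 5 of the 14 fits that left out 1 array. Of 13 partners of lipoprotein lipase 2 fell in liver, among them Apoc3, encoding an apolipoprotein that restrains it (-0.31, adjusted p = 0.028). No call was made among 11 tested in fat. In liver the genotype calls of Pnpla2 and Apoc3 were each lost in 7 of the 14 fits that left out 1 array, and that of Plin4 in 0. Of 19 other fatty acid uptake genes 0 were called for genotype over both ages, and at 8 weeks Acsl4, encoding an acyl-CoA synthetase, was higher in Akt1+/- fat (0.82, adjusted p = 0.044).

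The counts with age below stand against the shares of all genes called with age, 35.1% (liver), 31.4% (muscle) and 19.3% (fat), and most are near or under those shares. In liver 6 of 15 tested uptake genes fell and 0 rose (median -0.27, against 0.02 over all genes), among them Acsl3 (-0.76) and Acsl4 (-0.42), encoding acyl-CoA synthetases, and Slc27a5 (-0.34), encoding a fatty acid and bile acid CoA ligase of the hepatocyte. In muscle 3 rose and 3 fell of 15, with Acsl3 down (-0.73), and in fat Fabp3, the carrier of heart and muscle, rose (0.67, adjusted p = 0.043) and Fabp7 fell (-1.16, adjusted p = 0.0060). Of 7 skeletal muscle genes 3 were called higher with age in fat, Pvalb (2.35), Tnnt3 (1.37) and Myh4. The Myh4 probe was well above background on 1 of 6 arrays at 8 weeks and 8 of 8 at 35 weeks. Its fitted difference of 5.77 is therefore limited by background and is not an exact size. The summed signal of all 7 was 15.3 to 100.5 at 8 weeks and 21.2 to 86.4 at 35 weeks. Their part in the Fabp3 difference was not tested. Fabp1, the carrier of the hepatocyte, fell in muscle (-3.83 ± 1.33, adjusted p = 0.045). The albumin gene Alb read -2.21 to 5.18 on the 8-week and -5.49 to 1.76 on the 35-week muscle arrays, and its part in the Fabp1 difference was not tested. Of the other regulators Nr3c1, the glucocorticoid receptor gene, fell in liver (-0.60) and fat (-0.51), Stat5a fell (-0.46) and Zfp423, a gene of preadipocyte commitment, rose (0.94) in liver, and in muscle Ppargc1b rose (0.80) and Egr2 fell (-0.69). Of the inhibitors Klf3 rose in liver (0.66) and muscle (0.67), Klf2 (0.47) and Sfrp5 (0.48) rose in liver, Dlk1, the gene of preadipocyte factor 1, fell in muscle (-0.62), and Ddit3 rose in fat (0.39). Of the genes PPARγ induces, 5 of 19 rose in muscle, led by Lep (1.69), Plin1 (1.19) and Cidec (1.17), which are also adipocyte markers, and Adipoq in muscle reached 1.69 to 3.12 at 35 weeks against 0.60 to 2.98 at 8 weeks. In fat 2 of 19 rose, Retn (0.56) and Pnpla2 (0.29), and in liver Gpd1 (0.41) and Pnpla2 (0.35) rose and Slc2a4, the gene of the insulin-responsive glucose transporter, fell (-0.85). The sign of Sfrp5 in liver did not hold after normexp correction (-0.0058). Some of these age calls were lost when 1 array was left out, in 14 fits per tissue. In fat this held in 11 fits for Fabp3 and 8 for Pnpla2, and in muscle in 10 for Fabp1 and 3 for Plin1. In liver it held in 9 fits for Sfrp5, 8 for Klf2, 5 for Pnpla2, 4 for Acsl4 and 2 for Slc27a5. The other genes of the 5 lists named here with age kept their calls in all 14.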

How the data were processed

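RNA of 3 tissues was measured on 42 one-colour Agilent arrays. The authors scanned them with Feature Extraction (version 9.1 per the processing notes, 9.5.3.1 per the file headers), and the deposited scanner files hold background-subtracted processed intensity per spot, with probe positions on mm8. The deposited value table holds log2 values of the same arrays relative to the 75th percentile (lowest r with the scanner values 0.999998) and served as an alternative. Labels gave the groups.

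Here each array's log2 values were set relative to their own 75th percentile, and the spots of a probe were averaged. Control spots, outlier-flagged probes and probes well above background on fewer than 3 arrays of every group were left out, and the brightest probe stood for a gene. Probe genes were named through RefSeq by accession (24375 probes) or symbol (6301, and 2426 by an older symbol), and 8072 kept the array's name. limma 3.58.1 (R 4.3.3) fitted the 4 group means of 14 arrays per tissue, and 1 fit over 42 arrays gave the tissue comparisons. P-values were adjusted over all genes by Benjamini-Hochberg at 0.05. Scripts were tested on simulated data. The methods' two-way test at its own threshold called 1 member, Fabp4 with age in liver. Alternatives changed the background correction, scaling, filter, probe rule, block, fit and arrays. Named genes were all members, Akt1, up to 3 called genes per list and comparison with the largest differences, markers beside a member's result, and the 2 genes nearest each member; the keratin, Adgre1, Ly6a, Lipe and Alb values were added after they were seen. A few called genes of the lists are not reported here. The members and lists were chosen with earlier results of these data known.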

Additional observations from a re-analysis of the deposited data

Results flagged for a closer look

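Of the 44 combinations of member, tissue and genotype at 35 weeks, each with 4 arrays, 6 held an array far from the others of its group, where chance gives about 1 in 20. Of these, 5 were replicate 1. In wild type liver Cebpb read 4.745 on replicate 1 and 6.02 to 6.20 on the others, and Cebpd read 2.531 against 4.18 to 4.47. In wild type fat Cebpd read 4.742 on replicate 1 and 6.27 to 6.55 on the others. In Akt1+/- fat Cebpa read 3.481 on replicate 1 against 4.37 to 4.53, and Cebpb 3.755 against 4.37 to 4.45. The sixth was Fabp4 in wild type muscle, at 7.666 on replicate 3 and 7.35 to 7.40 on the others. Over all genes, the share of groups with such an array was 5.48% to 6.89%. The labels do not say whether arrays of 1 number and 1 genotype share a mouse. Wild type and Akt1+/- arrays of 1 number come from different mice, and the cause was not tested.

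The age difference of Fabp4 was lower in liver than in muscle by the interaction test, at -0.6273 (log2; adjusted p = 0.010 in limma), and it was called in each fit that left out 1 liver or muscle array, at -0.73 to -0.53.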

How the results depend on the processing

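Of 25 counts of called members, 19 stayed within 1.5 times their value under every alternative run. Of these, liver against muscle, 6, became 7 without replicate 1 at 35 weeks, fat against liver, 7 with Fabp5, became 8 after normexp correction, and fat against muscle and fat against liver lost Fabp5 with the strictest filter. Age in liver, 1 member, became 4 under median scaling and 2 with the mean of a gene's probes. Genotype in liver, 0, became 1, and genotype at 8 weeks in liver, 0, became 2, with replicate 1 of both genotypes left out at 35 weeks, an alternative chosen after seeing the data. Age in fat, 0, became 1 with the slide as a random block. The age difference between fat and liver, 0, became 1 after normexp correction with quantile normalization, under median scaling, with a filter that kept probes above background on every array, and with the replicate block, and the genotype difference between fat and muscle, 0, became 1 with the replicate block. Leaving out each array in turn gave 0 to 1 for genotype in liver, 0 to 2 for age in fat and 0 to 1 for the age difference between fat and liver. The replicate block changed no other count. Within a tissue, wild type and Akt1+/- arrays of 1 number deviated together at 35 weeks (r 0.105 to 0.526 over 12 pairs). Pairs of unlike number at that age gave r from -0.434 to 0.190 over 36 pairs, so the 2 ranges overlapped. At 35 weeks the number is also the position on the slide. At 8 weeks pairs of 1 number did not deviate together (-0.195 to 0.0731 over 9 pairs), and the labels do not say what a number marks. Of 116 single values 60 kept direction and side of the threshold. Some signs reversed. Median scaling moved all genes of a comparison alike, for genotype at 35 weeks by -0.17 in liver and -0.095 in muscle. That is enough to turn the 35-week genotype signs of Cebpb (0.14) and Cebpd (0.13) in liver and Fabp4 (0.07) in muscle. Others that turned under that scaling were Cebpa (-0.12) and Fabp4 (-0.064) by genotype in liver and Pparg by age in liver (-0.065). Further ones were Pparg by genotype in muscle (-0.042), Cebpb by age in muscle (-0.043) and Cebpa in fat against liver (-0.10). After normexp correction they were Cebpb (-0.072) and Lpl (-0.031) by age in muscle, Fabp4 (0.0029) and Lpl (0.0064) by genotype in fat, Cd36 by age in fat (-0.072), Cebpb (-0.11) and Fabp5 (-0.0033) in liver against muscle, and Sfrp5 by age in liver (-0.0058). With the mean of probes they were Cebpa by genotype in liver (-0.018) and Cebpb by age in muscle (-0.11). Without replicate 1 at 35 weeks they were Cebpa by genotype in liver (-0.017), Cd36 by age in liver (0.020) and muscle (0.021), Pparg (-0.054) and Cebpd (-0.028) by genotype in muscle, Cebpb by age in muscle (-0.015), and Cebpb (0.024) and Cebpd (0.19) by age in fat. Leaving out 1 array turned Cd36 by age in fat (-0.025 to 0.11), liver (-0.29 to 0.14) and muscle (-0.11 to 0.086), Cebpa in liver by age (-0.076 to 0.022) and genotype (-0.041 to 0.055), Cebpb (-0.048 to 0.056) and Lpl (-0.0039 to 0.23) by age in muscle, Cebpd by age in fat (-0.24 to 0.058) and Pparg by genotype in muscle (-0.12 to 0.17). Causes were not tested. Groups of 3 or 4 arrays limit the precision, and Fabp5 outside fat is limited by background.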
